A study of Drosophila melanogaster with 24 samples.

Results

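Brains of *tau*-KO females taken 1 h after traumatic brain injury (TBI) were compared with brains of uninjured *tau*-KO females across all genes. The libraries were chosen by their labels, and 6 of the 24 libraries of the study entered the comparison: 3 from injured females (1 h 1 to 1 h 3) and 3 from control females (control 1 to control 3). Both groups were mated adults in the second week of adult life, and both carried the *tau* deletion, so the comparison holds no fly with Tau. The injured females had received a single strike in a high impact trauma device, in which a vial of flies on a spring is thrown against a pad. The blow reaches the whole body and not the head alone. Each library was made from the RNA of 1 dissected brain, with a kit that reads the 3′ ends of polyadenylated transcripts. The other 18 libraries (*tau*-KO females at 2 and 4 h, and *tau*-KO males as control and at 1, 2 and 4 h) were used to estimate the spread between libraries and, where stated, for values set beside those of the 1 h females.

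The fly brain holds neurons of the central brain and optic lobes, several classes of glia that insulate and feed them, and neurosecretory cells that release insulin-like and other peptides into the blood. Dissected brains can carry remains of the eye, the antennal nerve, head fat body and muscle. After a blow, flies are known to switch on antimicrobial peptide genes through the Toll and Imd pathways, stress kinases, chaperones and detoxification enzymes, and the early part of that response is what a 1 h time point addresses. Tau itself binds and stabilizes microtubules in axons.

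Reads counted in genes numbered 522258, 1056271 and 466100 in the libraries at 1 h and 454039, 1200652 and 732181 in controls 1 to 3. Levels are given in CPM, counts scaled to the size of each library. A log2 FC is the log2 of the fold change at 1 h over control, with an approximate standard error (SE). Genes with at least 5 counts in at least 3 libraries were tested (7865 of 16995 listed) by edgeR's quasi-likelihood test. A call, in either direction, needed an absolute log2 FC over 1 and a p under 0.05 before adjustment. *tau* reads were present in every library, at 142, 148 and 191 CPM at 1 h and 180, 117 and 168 CPM in controls. Reads of the 3′ end do not check the deletion. The neuronal genes *elav* (227 to 273 CPM at 1 h and 135 to 262 CPM in controls) and *nSyb* (568 to 648 CPM at 1 h and 312 to 647 CPM in controls) were present in all 6 libraries. *repo*, which defines glia, was counted at 14.2 to 16.8 CPM at 1 h and 10.3 to 18.5 CPM in controls.

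Control 2 stood apart from the other 5 libraries. Its log2 CPM over 2362 abundant genes correlated at 0.836 with the mean of the other 5, against 0.945 to 0.976 for each of those. The 3 libraries at 1 h correlated with each other at 0.938 to 0.965, and the controls at 0.795 to 0.905, lowest for control 1 with control 2. Genes of the antenna were far higher in control 2 than elsewhere. *a10*, which encodes an abundant protein of the antenna, stood at 18.9 to 21.3 CPM at 1 h, against 1249 CPM in control 2 and 18.6 and 22.5 CPM in controls 1 and 3. *Orco*, the co-receptor of odorant receptors, stood between 0 and 3.87 CPM at 1 h, against 71.1 CPM in control 2 and 2.07 and 0 CPM in controls 1 and 3. The summed level of the 41 antenna and olfactory markers was 2601 to 3337 CPM at 1 h, against 11260 CPM in control 2 and 2929 and 3288 CPM in controls 1 and 3. Of the 41, 34 had a count, and *Or22a*, *Or47b*, *Or67d* and *Or92a*, which define classes of olfactory neurons, were at 0 in all 6 libraries. The yolk protein gene *Yp1*, a fat body gene of females, stood at 2276 to 3004 CPM at 1 h, against 12980 CPM in control 2 and 2933 and 3961 CPM in controls 1 and 3. The summed level of the fat body list was 24180 CPM in control 2. It was 8932 to 11020 CPM at 1 h and 10380 and 9799 CPM in controls 1 and 3. The median member was not higher in control 2, at −0.161 relative to the 6 libraries, against −0.101 to 0.199 in the other 5. *Lsp2*, a storage protein gene of the fat body, was lowest in control 2, at 1271, 930 and 1140 CPM at 1 h, against 413 CPM in control 2 and 1097 and 664 CPM in controls 1 and 3. The summed level of neuron markers was 6111 to 7242 CPM at 1 h, against 4799 CPM in control 2 and 5612 and 7201 CPM in the other controls. Photoreceptor markers were likewise lowest in control 2, at 11740 to 12880 CPM at 1 h, against 6445 CPM in control 2 and 9242 and 12060 CPM in the other controls. List medians, and the values of most called genes, are therefore given with and without control 2. For most genes that were not called, the log2 FC is given with all 6 libraries only, control 2 among them.

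**Figure D1:**
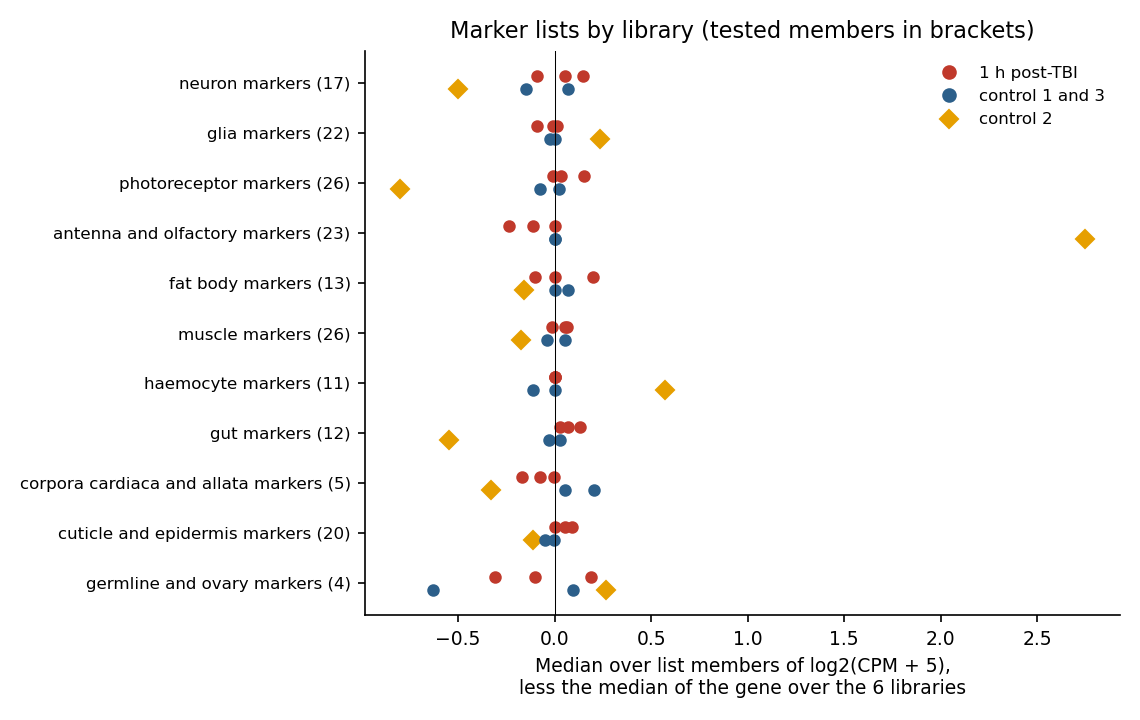
Level of 11 marker lists in each of the 6 libraries, as the median over tested members of log2(CPM + 5) less the median of each gene over the 6 libraries (horizontal axis). Each point is 1 library, with red for 1 h, blue for controls 1 and 3 and orange for control 2. Control 2 lay at 2.75 for the antenna and olfactory list, at −0.80 for photoreceptor and at −0.50 for neuron markers, and the other 5 libraries lay within 0.25 of 0 in these 3 lists.

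Few genes were called at 1 h. Of the 7865 tested genes, 113 were called (1.44%), 30 of them higher (0.381%) and 83 lower (1.06%). After Benjamini-Hochberg adjustment 0 genes passed an FDR of 0.05 by edgeR, where 117 had an unadjusted p under 0.05, and DESeq2, limma voom and edgeR's exact test also gave 0. Every gene had an FDR of 1 in the edgeR test, and values are therefore given gene by gene with their SE and their call, which rests on the unadjusted threshold. The median log2 FC over all tested genes was −0.06, and 46.1% of them were positive. Most calls were of scarce transcripts, since the median level of called genes was 7.46 CPM, against 20.3 CPM for all tested genes. In 18 of the 30 higher genes no control read was counted, and in 27 of the 83 lower genes no read was counted at 1 h. The libraries of both groups did not overlap for 60 of the called genes (24 higher and 36 lower), and for 816 of all tested genes (10.4%), with 406 above and 410 below. Fewer cells of a type and less RNA per cell cannot be told apart in whole brains. In a later gene annotation 46 of 114 genes (the called genes and *tau*) had an exon that overlapped another gene on either strand. Among the genes named here, the overlap was on the same strand for *tau* and *Nxf3*. It was on the opposite strand for *sn*, *LysD*, *Ubc7*, *wit*, *ed*, *Mp*, *Act87E*, *OS9* and *CG7203*. Some called genes that are not named here also had overlaps on the same strand. Reads may belong in part to the neighbour, on the opposite strand only if counting ignored strand.

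**Figure D2:**
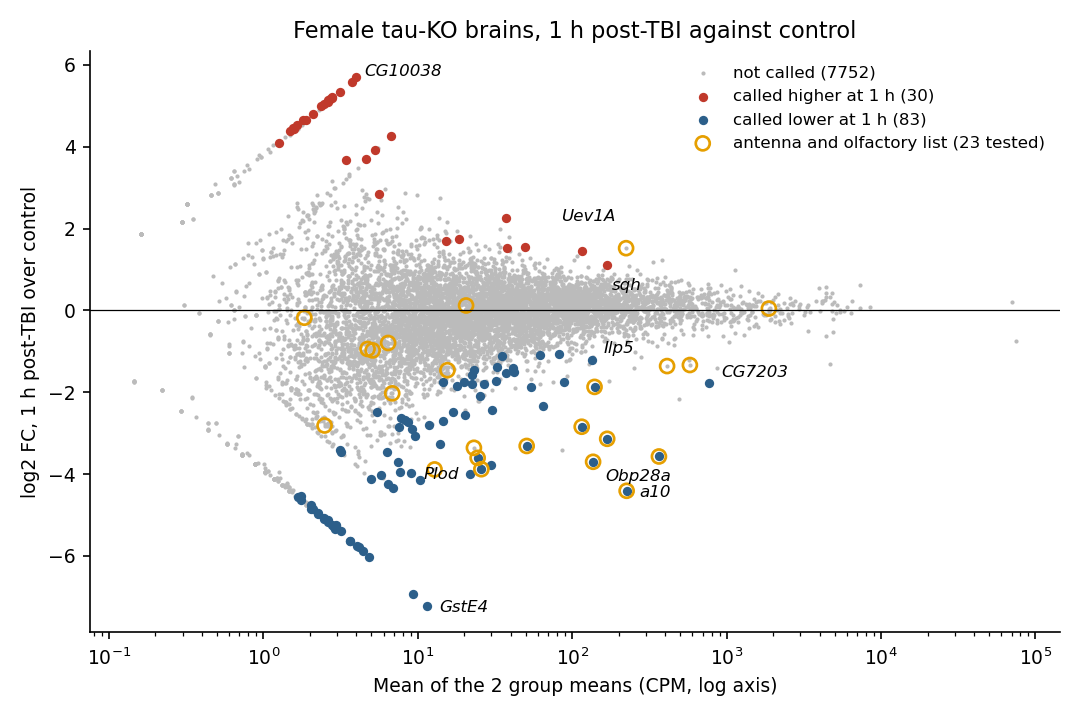
Log2 FC at 1 h over control (vertical axis) against the mean of both group means in CPM (horizontal axis, log scale) for each tested gene. Red points are the 30 genes called higher, blue points the 83 called lower and orange rings the 23 tested members of the antenna and olfactory list. The diagonal lines of points at the left are genes with no count in 1 of the groups, whose fitted log2 FC depends on the small count added in the fit.

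*Uev1A* and *sqh* were the 2 higher genes with a mean of at least 50 CPM over the 6 libraries. *Uev1A* encodes a ubiquitin-conjugating enzyme variant that helps build the lysine-linked ubiquitin chains used in Imd and JNK signalling. It stood at 131, 160 and 218 CPM at 1 h, against 103, 38.6 and 44.97 CPM in controls. All 3 libraries at 1 h lay above all controls, with a log2 FC of 1.46 (SE 0.52). Without control 2 *Uev1A* was not called, at 1.199, and it was called with each of the other 5 libraries left out. *sqh*, the regulatory light chain of nonmuscle myosin, stood at 149, 252 and 289 CPM at 1 h, against 130, 103.5 and 88.6 CPM in controls (log2 FC 1.10, SE 0.50). The groups did not overlap, although 1 h 1 lay close to control 1, and the log2 FC ran between 0.91 and 1.33 with single libraries left out. The call was lost without control 2, control 3, 1 h 2 or 1 h 3.

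*sn*, *nudC* and *CG8273* were higher with fewer reads. *sn*, the fly fascin that bundles actin filaments, had 110, 52.2 and 56.6 CPM at 1 h, against 41.3, 20.2 and 14.6 CPM in controls (log2 FC 1.54, SE 0.65). *nudC*, whose product works with dynein, had 32.0, 28.04 and 25.1 CPM at 1 h, against 12.4, 11.4 and 1.32 CPM in controls (log2 FC 1.75, SE 0.73). *CG8273* had 63.9, 49.3 and 54.5 CPM at 1 h, against 31.0, 14.9 and 13.2 CPM in controls (log2 FC 1.52, SE 0.58). In all 3 genes every library at 1 h lay above every control. *nudC* stayed called without control 2, at a log2 FC of 2.11, and lost the call without control 3 or 1 h 1. *sn* and *CG8273* lost it without control 2 (log2 FC 1.399 and 1.351) or control 3 (1.26 and 1.31), and *sn* also without 1 h 1 (1.12).

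In 23 of the 30 higher genes the controls held 3 counts or fewer in all. *CG10038* had 4, 3 and 6 counts at 1 h (7.10, 2.90 and 12.6 CPM) and no count in any control, which makes it at least 4.97-fold higher at 1 h, with a floor of 3 counts over the control group that covers counting error only. It was the only higher gene that kept its call with each of the 6 libraries left out in turn. *CR43700*, a noncoding RNA by its name, had 8.88, 10.6 and 4.19 CPM at 1 h and no control count, at least 6.88-fold higher. The cuticle protein gene *Cpr50Cb* had 1.77, 6.77 and 6.29 CPM at 1 h and no control count, at least 4.21-fold higher. *Nxf3*, of the nuclear RNA export factor family, had 10.7, 3.87 and 4.19 CPM at 1 h and no control count, at least 4.59-fold higher. *CG9766* and *CG14050* had 11 counts each over the libraries at 1 h and none in controls, each at least 4.21-fold higher. The last 5 genes lost their calls without control 2, while their fitted log2 FC stayed nearly the same (5.70 and 5.67 for *CR43700*, 5.04 and 5.01 for *Cpr50Cb*, 5.34 and 5.32 for *Nxf3*, 4.99 and 4.97 for *CG9766*, and 5.10 and 5.07 for *CG14050*, with and without control 2).

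Other higher genes, named after their values were seen, turned on 1 library or on few reads. *dhd*, a thioredoxin of the female germline, had 151 CPM in 1 h 1 and 13.5 and 20.96 CPM in the other libraries at 1 h, against 8.27, 9.65 and 19.8 CPM in controls. Its log2 FC was 2.27 (SE 1.07) with all libraries and 0.43 without 1 h 1, and with the replicate number as a block it was 1.69 and not called. *LysD*, a lysozyme gene of a cluster of near-identical copies, had 3.55, 5.80 and 0 CPM at 1 h and no control count, and its reads could belong to a copy.

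**Figure D3:**
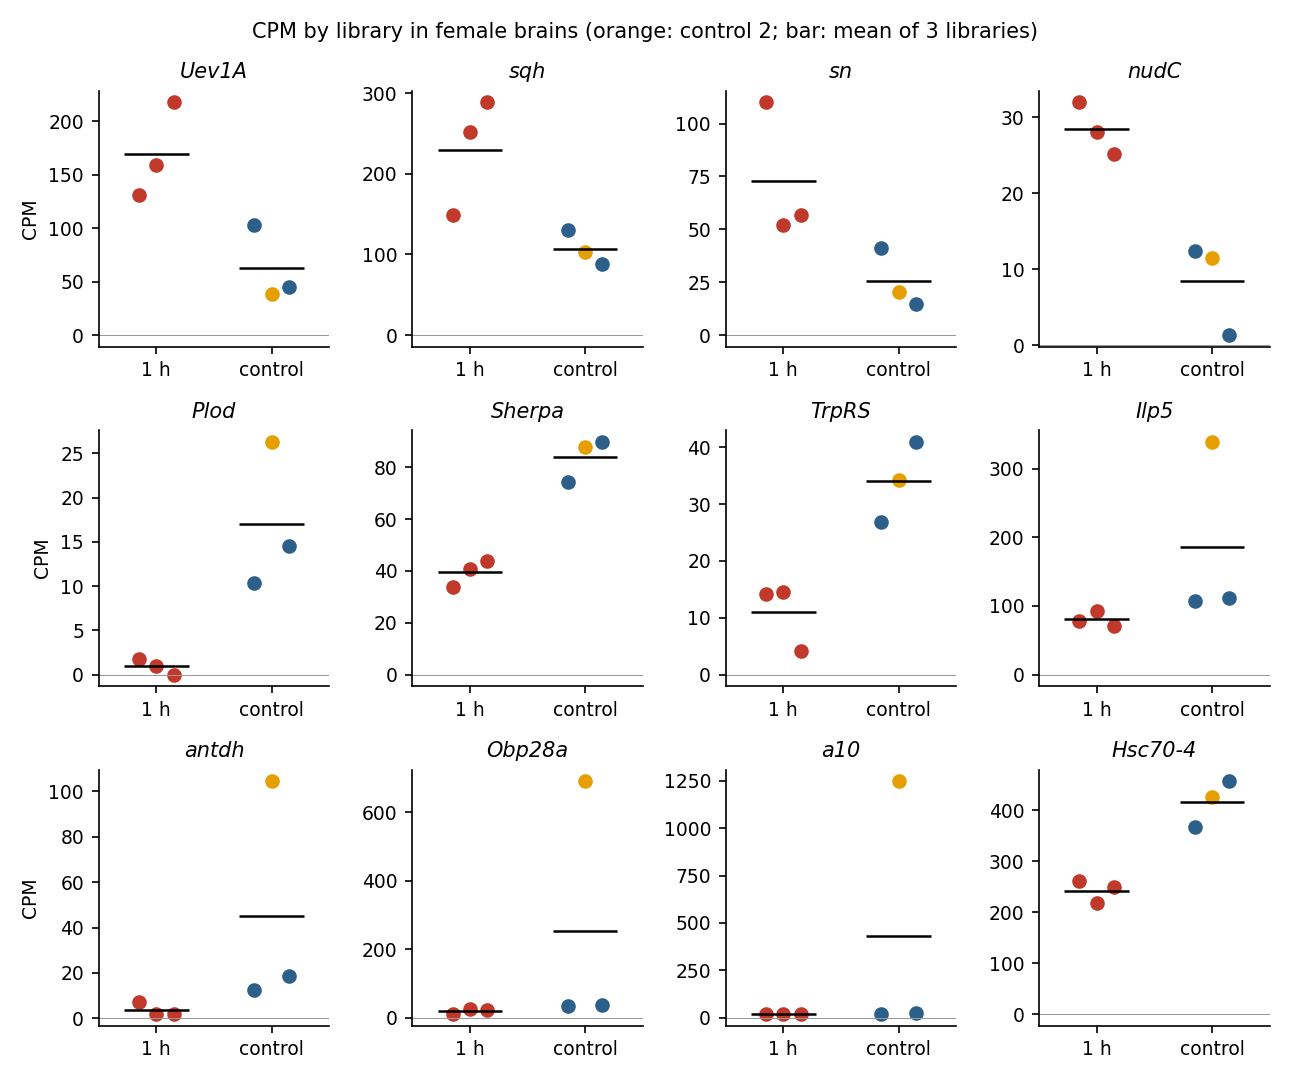
CPM in each library for 12 genes, with the 3 libraries at 1 h on the left (red) and the 3 controls on the right (blue, with control 2 in orange) and a bar at each group mean. The upper row holds genes called higher and the middle row genes called lower. Of the lower row *antdh*, *Obp28a* and *a10* were called lower with control 2 far above the other controls, and *Hsc70-4* was not called although its groups did not overlap.

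Of the 83 lower genes, those in which all controls lay above all injured brains come first. *Plod*, the lysyl hydroxylase that modifies collagen, had 1.77, 0.967 and 0 CPM at 1 h, against 10.3, 26.3 and 14.6 CPM in controls. It had 2 counts at 1 h and 46 in controls, a ratio of 0.0499 (95% exact interval 0.00586 to 0.191, counting error only). It was the only lower gene called with each of the 6 libraries left out in turn, and its log2 FC was −3.52 without control 2. *CG31248* had 14.2, 13.5 and 16.8 CPM at 1 h, against 33.1, 57.9 and 56.9 CPM in controls (log2 FC −1.74, SE 0.68). It was still called without control 2 and lost its call only without 1 h 2.

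*Ubc7*, a ubiquitin-conjugating enzyme of degradation at the endoplasmic reticulum, had no count at 1 h and 2.07, 3.51 and 6.61 CPM in controls, at least 2.91-fold lower at 1 h. *CG11983* had no count at 1 h and 10.3, 3.51 and 3.97 CPM in controls, at least 3.49-fold lower. Both kept their calls without control 2 and lost them without 1 h 2. *mthl8*, a receptor gene of the methuselah family, had 0, 0.967 and 2.10 CPM at 1 h, against 10.3, 35.1 and 13.2 CPM in controls (ratio 0.0417, interval 0.00493 to 0.158). *Orct*, an organic cation transporter, had 1.77, 4.83 and 0 CPM at 1 h, against 14.47, 52.6 and 9.26 CPM in controls (log2 FC −3.28, SE 1.32). The last 2 genes were highest in control 2. Both lost their calls without it, at log2 FC values of −3.40 and −2.15.

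A further set of lower genes was picked for known roles after the values were seen. *Sherpa*, a ubiquitin ligase linked to Toll signalling, had 33.7, 40.6 and 44.0 CPM at 1 h, against 74.4, 87.7 and 89.9 CPM in controls (log2 FC −1.09, SE 0.48). Spread was small in both groups. Without control 2 the log2 FC was −1.06 and the gene was not called, and it also lost its call without control 3, 1 h 1 or 1 h 2. *TrpRS*, which charges tRNA with tryptophan, had 8, 15 and 2 counts at 1 h (10.97 ± 5.87 CPM, SD, n = 3), against 13, 39 and 31 counts in controls (34.03 ± 7.07 CPM, SD, n = 3), with no overlap in CPM (log2 FC −1.59, SE 0.70). *wit*, the type II receptor of BMP signalling at the motor synapse, had 0, 1.93 and 0 CPM at 1 h, against 8.27, 12.3 and 23.8 CPM in controls (ratio 0.0637, interval 0.00743 to 0.247). In all 3 genes control 2 lay between the other controls. *TrpRS* lost its call without control 2, although its log2 FC stayed at −1.59, and without control 3 (−1.44) or 1 h 3 (−1.24). *wit* kept its call without control 2, at −4.08, and lost it without control 3 (−3.46), 1 h 1 (−3.54) or 1 h 3 (−3.59).

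*ed*, the adhesion molecule Echinoid, had 24.9, 18.4 and 23.1 CPM at 1 h, against 57.9, 35.97 and 48.9 CPM in controls (log2 FC −1.10, SE 0.53), and with the replicate block it was not called. It was called without control 2 at −1.28 and lost the call with any other library left out. *Surf4*, a cargo receptor of the endoplasmic reticulum, had 17.8, 18.4 and 20.96 CPM at 1 h, against 26.9, 79.8 and 58.2 CPM in controls (log2 FC −1.54, SE 0.69). *AP-2mu*, a subunit of the clathrin adaptor of endocytosis, had 7.10, 6.77 and 6.29 CPM at 1 h, against 10.3, 43.9 and 13.2 CPM in controls (log2 FC −1.75, SE 0.77). Control 2 was the highest library in *Surf4* and *AP-2mu*, and both lost their calls without it, at log2 FC values of −1.17 and −0.80.

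*Ilp5*, an insulin-like peptide of the brain's insulin-producing cells, was the only called member of the insulin and TOR list (24 tested). It had 78.1, 92.8 and 71.2 CPM at 1 h, against 108, 340 and 111 CPM in controls, with a log2 FC of −1.21 (SE 0.56). Every control lay above every library at 1 h, but controls 1 and 3 by little, and without control 2 the log2 FC was −0.44 and the gene was not called. *Ilp5* and the eclosion hormone gene *Eh* were the 2 called members among 32 tested neuropeptide genes. All 19 counts of *Eh* lay in control 3, at 25.1 CPM, and without that library it had a log2 FC of 0.

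Most of the lower genes were highest in control 2. Of the 83, 68 had their highest level of the 6 libraries there, 12 in control 3 and 3 in control 1. Control 2 held over 80% of the control CPM for 31 of them, and it lay above the other 11 female libraries for 55, against 15.4% of all tested genes. The lower genes were selected for high controls, control 2 among them, so a raised share is in part built in. For the 68 and the 31 no share over all tested genes was computed. The antenna and olfactory list carried the largest group, with 9 of 23 tested members lower and 0 higher, and a median log2 FC of −2.03. Those members were *Obp19a*, *Obp19d*, *Obp28a*, *Obp56d*, *Obp83b*, which encode odorant-binding proteins, *a5*, *a10* and *OS9*, which encode further proteins of olfactory organs, and the antennal dehydrogenase gene *antdh*. *Obp19d* had 40.8, 75.4 and 52.4 CPM at 1 h, against 47.5, 1901 and 68.8 CPM in controls (log2 FC −3.57, SE 1.16). *Obp28a* had 10.7, 26.1 and 20.96 CPM at 1 h, against 33.1, 691 and 37.0 CPM in controls (log2 FC −3.70, SE 1.03). Controls 1 and 3 lay within the range of the injured brains in *Obp19d* and above all injured brains in *Obp28a*. Without control 2 both genes lost their calls, at log2 FC values of −0.05 and −0.85.

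Without control 2 the median log2 FC of the antenna list was −0.05, over 21 tested members. *antdh* then had the lowest log2 FC of the list. It had 7.10, 1.93 and 2.10 CPM at 1 h, against 12.4, 104.4 and 18.5 CPM in controls (log2 FC −3.60, SE 1.23), and −2.05 without control 2, where it was not called. With the replicate block *Obp19a* and *OS9* were not called. The part of antennal tissue in the other lower calls was not tested.

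Called detoxification genes were also high in control 2. *GstE4*, a glutathione S-transferase, had all of its 78 control counts in control 2 (68.4 CPM) and none at 1 h, at least 22.7-fold lower with control 2 and at 0 in all 5 other libraries. *Cyp9f2*, a cytochrome P450, had 19.5, 29.97 and 14.67 CPM at 1 h, against 24.8, 246 and 55.5 CPM in controls (log2 FC −2.33, SE 1.06). Without control 2 its log2 FC was −0.90, and it was called neither then nor with the replicate block. *Cyp9f2* was the only called gene of 48 tested P450 genes, of which 16 were positive, with a median log2 FC of −0.45 and of −0.16 without control 2. *CG7203* had 344, 411 and 285 CPM at 1 h, against 349, 2698 and 509 CPM in controls (log2 FC −1.77, SE 0.64), and −0.31 without control 2, where it was not called. It was the most abundant of the called genes.

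**Figure D4:**
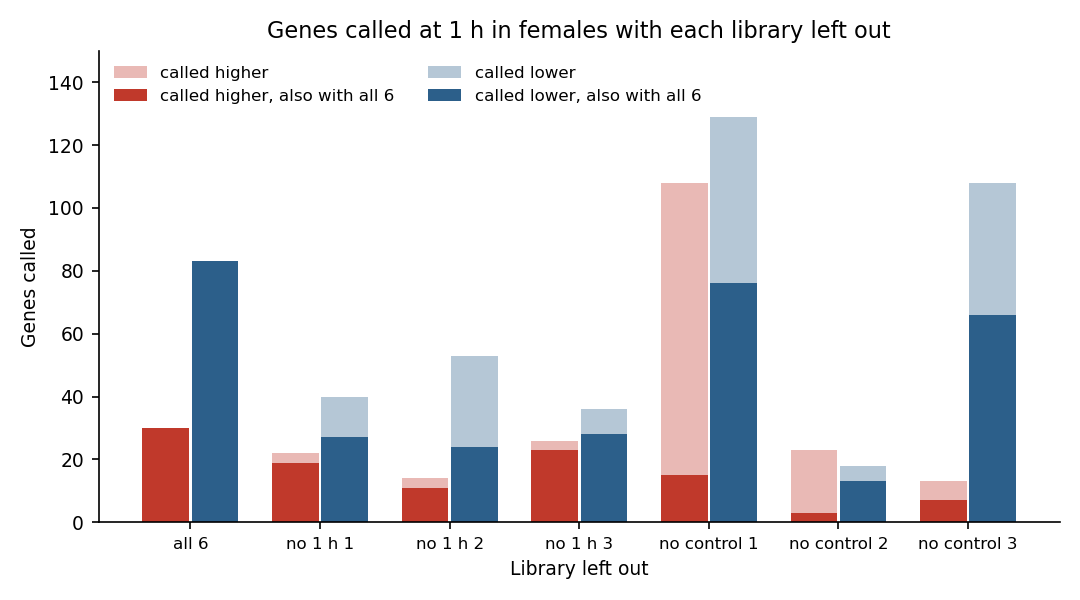
Number of genes called higher (red) and lower (blue) with all 6 libraries and with each library left out (horizontal axis). The dark part of each bar counts genes that were also called with all 6 libraries. Without control 2, 23 genes were called higher and 18 lower, of which 3 and 13 were among the 30 and 83.

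The number of calls moved with single libraries, as the plot of calls by library left out shows. It was 41 without control 2 (23 higher and 18 lower), 237 without control 1, 121 without control 3, and 62, 67 and 62 without 1 h 1, 1 h 2 and 1 h 3. Of the 113 genes 16 were also called without control 2, among them *nudC*, *Plod*, *Ubc7*, *wit*, *ed* and *Eh*. Only *CG10038* and *Plod* were called in all 6 of these fits, a further 17 genes in 5 of them and 59 genes in 2 or fewer. Apart from the 16, 25 genes were called only once control 2 was left out. Of these, named after their values were seen, *CG14671* had 31.96, 23.2 and 27.2 CPM at 1 h, against 8.27, 19.3 and 2.65 CPM in controls, with a log2 FC of 1.38 that became 2.36 without control 2. *CG5758* had 94.1, 100.6 and 48.2 CPM at 1 h, against 99.2, 114 and 241 CPM in controls, with a log2 FC of −0.90 that became −1.07.

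Genes of innate immunity showed no called antimicrobial peptide. In the list of antimicrobial peptides, 0 of 29 tested genes were called (0 had an unadjusted p under 0.05 by edgeR), 22 were positive, and the median log2 FC was 0.22, beside −0.06 for all genes. Without control 2 the median was 0.17. *Mtk*, the antifungal peptide metchnikowin, had 204, 215 and 214 CPM at 1 h, against 161, 70.2 and 89.9 CPM in controls (log2 FC 0.99, SE 0.63). The libraries at 1 h were tightly grouped and above all controls, yet the difference did not pass the test. *Drs*, which encodes drosomycin and was named after its values were seen, had 423, 549 and 423 CPM at 1 h, against 384, 304 and 391 CPM in controls (log2 FC 0.37, SE 0.48). Among 36 tested components of Toll and Imd signalling *Uev1A* was the only call, 22 were positive and the median was 0.19, or 0.16 without control 2. The JAK-STAT and Turandot list (17 tested) and the JNK, wound and AP-1 list (24 tested) had 0 calls and medians of 0.08 each, or 0.28 and 0.07 without control 2, and neither had a gene with an unadjusted p under 0.05.

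Of the heat shock, endoplasmic reticulum stress, ubiquitin conjugation, proteasome, autophagy and apoptosis lists, ubiquitin conjugation alone held calls. None of 29 tested heat shock and chaperone genes was called, and the median log2 FC was 0.04, or 0.12 without control 2. *Hsc70-4*, the constitutive Hsp70 of neurons and other cells, had 261, 218 and 249 CPM at 1 h, against 368, 427 and 458 CPM in controls (log2 FC −0.78, SE 0.40). The groups did not overlap and control 2 lay between the other controls, but the fold change was under the limit and p missed the threshold. In the ubiquitin conjugation list *Uev1A* was higher and *Ubc7* lower among 36 tested genes. Of 31 tested proteasome genes 23 were negative with a median of −0.20, or −0.08 without control 2, and 0 were called. *Rpn8*, a lid subunit, went the other way at 28.4, 50.3 and 73.3 CPM at 1 h, against 26.9, 21.1 and 3.97 CPM in controls (log2 FC 1.56, SE 0.80). In the apoptosis and DNA damage list 0 of 19 were called. *Diap1*, the inhibitor of caspases, had 65.7, 60.9 and 46.1 CPM at 1 h, against 53.7, 196 and 149 CPM in controls (log2 FC −1.21, SE 0.61), with overlapping groups.

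In the list of respiratory chain and ATP synthase genes 1 had an unadjusted p under 0.05. *ND-23*, a subunit of complex I, had 270, 331 and 277 CPM at 1 h, against 229, 131 and 156 CPM in controls (log2 FC 0.77, SE 0.36), and was not called because the change was below the fold limit. Without control 2 it was 0.60. Of the 69 tested respiratory chain and ATP synthase genes 0 were called, 28 were positive and the median was −0.06, or −0.0036 without control 2. *ND-19*, another complex I subunit, went the other way, with 117, 118 and 92.2 CPM at 1 h against 122, 177 and 208 CPM in controls (log2 FC −0.63). Of 72 genes of the mitochondrial ribosome 45 were negative with a median of −0.23, which was 0.03 without control 2. *Tim23*, of the import channel in the inner mitochondrial membrane, had 37.3, 38.7 and 37.7 CPM at 1 h, against 55.8, 103.5 and 72.7 CPM in controls (log2 FC −1.03, SE 0.55). *Cat*, catalase, had 15.98, 20.3 and 6.29 CPM at 1 h, against 22.7, 426 and 22.5 CPM in controls (log2 FC −3.42, SE 1.79), and −0.62 without control 2. The 81 cytosolic ribosomal protein genes had 0 calls and a median of −0.12, or −0.03 without control 2, with 58 negative. *RpL38*, of the large subunit, had 1466, 1326 and 1316 CPM at 1 h, against 1711, 1871 and 1900 CPM in controls (log2 FC −0.42), the lowest p among them.

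The lists of neuron markers, axon guidance, ion channels, synapses, transmitters and clock genes held no call. Of 17 neuron markers 14 were positive with a median log2 FC of 0.20, or 0.06 without control 2, and of 50 tested genes of axon guidance, adhesion and growth 37 were positive with a median of 0.22, or 0.08. *plum*, an immunoglobulin protein of axon pruning, had 112, 99.6 and 126 CPM at 1 h, against 82.7, 54.4 and 58.2 CPM in controls (log2 FC 0.79, SE 0.39). *Nlg2*, a synaptic neuroligin, had 95.9, 76.4 and 115.3 CPM at 1 h, against 57.9, 24.6 and 39.7 CPM in controls (log2 FC 1.25, SE 0.67). Both had all libraries at 1 h above all controls and did not pass the test. The median was 0.14 for 31 tested voltage-gated ion channels, or 0.15 without control 2. *na*, a sodium leak channel of clock neurons, had 151, 150 and 184 CPM at 1 h, against 140, 83.3 and 68.8 CPM in controls (log2 FC 0.73). Synaptic vesicle and active zone genes (38 tested), transmitter genes (54 tested) and circadian clock genes (22 tested) had 0 calls and medians of 0.11, 0.01 and 0.11, or 0.06, −0.01 and 0.04 without control 2.

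Markers of glia lay on the other side, with 16 of 22 negative and a median of −0.25, or −0.05 without control 2. *Eaat1*, the glutamate transporter of glia, had 147, 220 and 172 CPM at 1 h, against 186, 252 and 395 CPM in controls (log2 FC −0.63, SE 0.40). Photoreceptor markers had the highest median of all 40 lists, 0.41, with 20 of 26 positive, and 0.20 without control 2. *Rh3*, an ultraviolet-sensitive rhodopsin, had 87.0, 70.6 and 73.3 CPM at 1 h, against 70.3, 15.8 and 23.8 CPM in controls (log2 FC 1.11, SE 0.75). *ninaE*, the main rhodopsin, had 792, 846 and 769 CPM at 1 h, against 796, 412 and 474 CPM in controls (log2 FC 0.52), and in both genes control 1 lay near the injured brains, above the other controls. Among basement membrane genes (21 tested) *Plod* and *Mp*, a collagen of the multiplexin type, were lower. *Mp* had 17.8, 12.6 and 6.29 CPM at 1 h, against 37.2, 50.9 and 13.2 CPM in controls (log2 FC −1.45, SE 0.69), and −1.01 without control 2, where it was not called. The muscle list (26 tested) held 1 call, the actin gene *Act87E*, whose reads may be shared with other actin genes. *Act87E* had 3.55, 0.967 and 2.10 CPM at 1 h, against 6.2, 34.2 and 7.9 CPM in controls (log2 FC −2.89, SE 1.33). Without control 2 its log2 FC was −1.69, and it was called neither then nor with the replicate block.

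The other lists are given by their median log2 FC with all libraries and without control 2, beside −0.06 and 0.03 for all tested genes. Without control 2 the median changed sign in 10 of the 40 lists. Of the lists with 0 calls, activity-induced early genes (12 tested) were at 0.27 and 0.10, microtubule and axonal transport genes (32 tested) at 0.17 and 0.05, and endoplasmic reticulum stress genes (26 tested) at −0.15 and 0.09. Autophagy and lysosome genes (35 tested) were at −0.26 and −0.07, mitochondrial dynamics and carriers (37 tested) at −0.04 and −0.05, and glycolysis and trehalose genes (22 tested) at −0.09 and −0.04. Lipid metabolism (29 tested) was at −0.08 and 0.04, and transcription and splicing (46 tested) at 0.01 and −0.02.

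The oxidative stress and glutathione list (50 tested), with *GstE4*, was at −0.17 and −0.02, insulin and TOR at −0.13 and 0.11, neuropeptides at −0.13 and −0.02, ubiquitin conjugation at −0.14 and −0.05 and basement membrane at −0.19 and 0.19. The apoptosis and DNA damage list was at 0.35 and 0.08. Among markers of other tissues, fat body (13 tested) was at −0.06 and 0.03, muscle at 0.08 and 0.06, haemocytes (11 tested) at −0.23 and 0.05, gut (12 tested) at 0.32 and 0.10, corpora cardiaca and allata (5 tested) at 0.12 and −0.10, cuticle and epidermis (20 tested, with *Cpr50Cb*) at 0.35 and 0.33 and germline and ovary (4 tested) at 0.25 and 0.40.

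**Figure D5:**
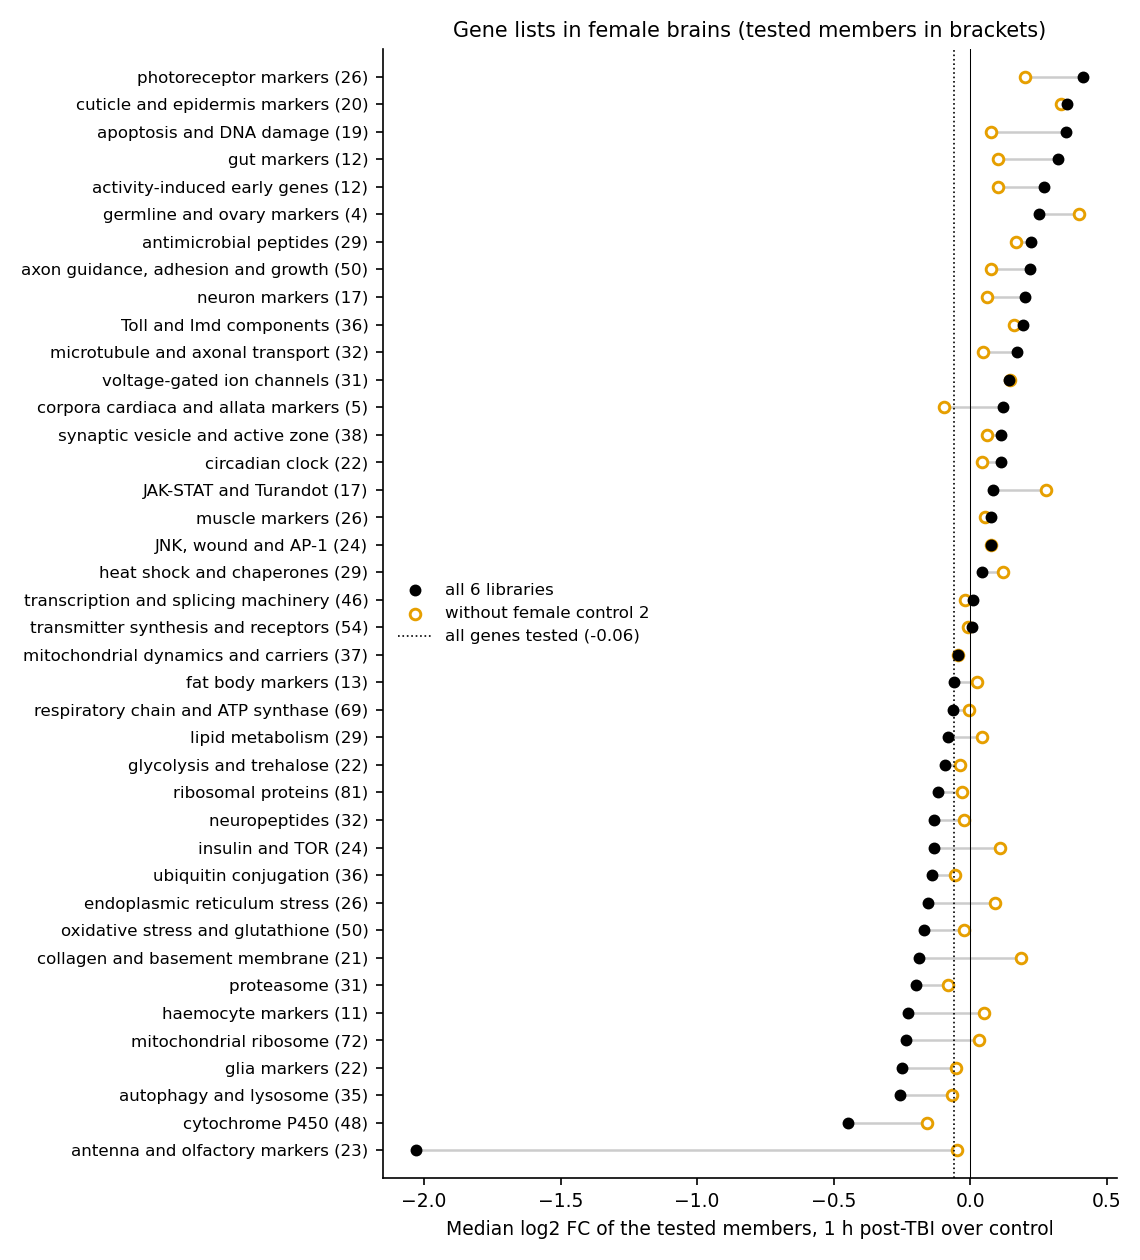
Median log2 FC of the tested members of each of the 40 gene lists (horizontal axis), with all 6 libraries (black) and without female control 2 (orange rings). The dotted line marks the median of all tested genes, −0.06. The antenna and olfactory list lay at −2.03 with all 6 libraries and at −0.05 without control 2, and no other list had a median beyond 0.45 in either direction.

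Females at 2 and 4 h were compared with the same controls, so agreement between times is not independent, and values are given side by side. *Uev1A* had log2 FC values of 1.46, 1.16 and 1.06 at 1, 2 and 4 h, and *nudC* of 1.75, 1.796 and 1.53. *sn* had 1.54, −0.37 and 0.98, and *sqh* 1.10, 0.89 and 0.69. Among lower genes *Plod* had −3.98, 0.10 and −0.65, *Sherpa* −1.09, −0.21 and −0.50, and *TrpRS* −1.59, −0.73 and −0.56. *Ilp5* had −1.21, −0.17 and −0.83, and *Surf4* −1.54, −0.11 and 0.09. Every library at 1 h lay above all 6 later female libraries for 1 of the 30 higher genes, against 0.788% of all tested genes, and below all 6 for 6 of the 83 lower genes, against 0.559%. The called genes were selected on these same libraries at 1 h, which raises their shares. The shares therefore do not show an effect particular to 1 h.

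Males at 1 h shared no library with the females. In the same fit 365 genes were called in males (4.64%). Of the 30 genes higher in females 16 had a positive log2 FC in males, and of the 83 lower genes 55 had a negative one, where 50.9% of all tested genes were positive in males. Males and females shared calls for 9 of the 113 genes, 4 in the same direction and 5 in opposite directions. *wit* was among the 4, with a log2 FC of −5.08 in males. In males *Uev1A* had a log2 FC of −0.05, *sqh* of 0.13, *sn* of 0.83 and *Plod* of −0.86. A test of the difference between sexes called 239 genes (3.04%), with an unadjusted p under 0.05 for 33 of the 113, and the lowest FDR of that test was 0.99991. That test contains the female contrast on which the 113 were selected, so their share is raised by the selection. It does not show that these changes are particular to females.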

How the data were processed

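Per the labels and the study's methods, the authors demultiplexed the reads with CASAVA 1.8.2, aligned them to the fly build dm3 with STAR 2.4 and counted reads per gene with HTSeq, and they deposited raw counts for 24 libraries (8 groups of 3). Whether counting used strand is not given in the sources used here. The deposited tables of the authors' own comparisons (log2 fold changes, CPM, likelihood ratios, p and FDR from edgeR 3.22.3) were not used. Reads outside genes or assigned to no single gene, 26.5% to 40.9% of each of the 6 libraries, were left out of library sizes and tests.

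Of 16995 listed genes, the 7865 with at least 5 counts in at least 3 of the 24 libraries were scaled by TMM and fitted over all 24 libraries with robust quasi-likelihood dispersions (edgeR 4.0.16, limma 3.58.1, R 4.3.3; tables in Python 3.11.15). The contrast was female 1 h over female control. Each SE is the absolute log2 FC divided by the square root of the test's F statistic. Depth was 454039 to 1200652 gene counts in the 6 libraries, and intervals and floors cover counting error only. The code was tested on simulated data. Each library is a single brain, so p-values measure the spread between single brains.

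Same-numbered brains deviated together from their group means (Pearson's r of 0.446, 0.432 and 0.101 across genes, the last below 0.245 for 1 h 3 with control 1 and 0.164 for 1 h 2 with control 3), so the replicate number was also fitted as a block. Other alternatives were RLE scaling, other filters, DESeq2 1.42.0, limma voom and edgeR's exact test. Fewer libraries, each library left out, a higher fold limit and an FDR limit were also used. The limma voom fit weighted each library by its estimated quality. The weights were 1.64, 0.51 and 0.997 for controls 1 to 3, and 2.23, 1.98 and 4.05 for 1 h 1 to 1 h 3.

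Genes were named by rule: *tau*, the 15 higher and 15 lower non-overlapping calls of lowest p, the 10 most abundant calls, the 10 most abundant calls lost without control 2, and in each of 40 lists the called members and the 3 of lowest p. The text gives a selection of these, and other genes were chosen after their values were seen. The members and lists were chosen with earlier results of these data known. Of 1469 list entries 1455 matched a listed gene and 1231 were tested.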

Additional observations from a re-analysis of the deposited data

Results flagged for a closer look

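For 3 called genes whose 1 h and control females did not overlap, and which had over 3 counts in each of the 4 groups, the effect at 1 h differed between sexes at an unadjusted p under 0.01 in edgeR's interaction test. The FDR was 0.9999 for each. *TrpRS* had a female minus male difference in log2 FC of −2.89. In males alone its log2 FC was 1.302 (SE 0.72), and in females −1.59 (SE 0.70). Without the 2 male libraries that stand apart, male control 2 and male 1 h 2, the difference was −2.12 and p was over 0.01. *antdh* had a difference of −5.17, or −5.34 without those libraries. *Obp28a* had a difference of −3.94, or −3.66 with a p over 0.01. In females both antennal genes were highest in control 2. Without control 2 the log2 FC in females was −0.85 for *Obp28a* and −2.05 for *antdh*, beside 0.24 and 1.57 in males. The interaction test was also run without control 2, but its values for these genes are not given here.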

How the results depend on the processing

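The count of 113 calls was within 1.5 times under RLE scaling (116), the replicate block (117, of which 81 were shared), the 12 female libraries (145), DESeq2 (113, of which 81 were shared), a log2 FC limit of 2 (87) and, chosen after seeing the data, without the 2 male libraries that stand apart (147). It was 183 with no filter, with 9 genes at an FDR under 0.05, 60 with edgeR's filterByExpr (6244 genes tested), 200 in the 6 libraries alone, 294 by limma voom, 339 with edgeR's exact test of those 6 and 0 at an FDR under 0.05. With the 12 female libraries but control 2, also chosen after seeing the data, it was 71. With single libraries left out it ran between 41 and 237. The sex difference called 120 genes with filterByExpr against 239. The cause of these shifts was not tested. The 9 genes at an FDR under 0.05 with no filter were all lower at 1 h, and each had its highest count in control 2. *a10*, which was among them, had 1424 counts in control 2, against 9 and 17 in controls 1 and 3.

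Of the 66 tested genes named, 6 reversed direction under some alternative, and of the 107 called genes with a value without control 2, 6 reversed there. Under some alternative 22 of the 40 list medians moved. With single libraries left out, log2 FC ran from −0.12 to 0.17 for *tau*, from −3.69 to 0.32 for *a5*, from −3.38 to 0.52 for *Obp56d*, from −2.37 to 0.15 for *OS9* and from −0.029 to 0.38 for *repo*, and with the 12 female libraries but control 2 it was −0.13, 0.31, 0.51 and 0.15 for the first 4. *Obp19a* was at 1.02 by limma voom. Besides *dhd*, *LysD*, *ed*, *Obp19a*, *OS9*, *Cyp9f2* and *Act87E*, the replicate block ended no call of a named gene. Genes at 0 in a group of 3 libraries limit what this depth can show. The median of all genes was −0.06, against 0.05 by limma voom.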
